A study of Arabidopsis thaliana with 6 samples.

Results

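Dirigent proteins are small secreted proteins of plants. They have no oxidase activity of their own and are known to steer how monolignol radicals, made by laccases and peroxidases, couple to each other, which sets the stereochemistry of the resulting lignans. In Arabidopsis some family members are also needed to place lignin in the Casparian strip of the root endodermis, and the family's older name, disease resistance-responsive proteins, comes from its induction in defence. The genes described here are 10 Arabidopsis thaliana loci listed as dirigent-like: AT1G22900 and 9 relatives. All 10 were found among the 16550 genes that had a probe set annotated to exactly 1 gene, and each had 1 such probe set. AT1G22900 was chosen by its log2 difference between the 2 sorted populations, so its values are a description and carry no test. The relatives were listed by family, with results of these data known, and the probe sets were selected on their mean over all arrays. Neither the annotation used here nor the array table names a function for single members, so they are called by locus, and the family name was not checked against sequence.

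The values came from 6 Affymetrix arrays of total RNA from sorted protoplasts. YFP-positive cells, called phloem in the labels, had 3 arrays, and YFP-negative cells, called non-phloem in the design text, had 3 arrays. Both carried the genotype SEOR1pro::SEOR1-YFP, in which the promoter of SEOR1, a sieve element gene, drives its own protein fused to YFP. Both came from cotyledons of seedlings grown for 6 days and then cultured for 72 hours with 2,4-D (a synthetic auxin, 1.25 mg/L), kinetin (a cytokinin, 0.25 mg/L) and bikinin (which inhibits kinases of the GSK3 type, 10 µM). The YFP-negative gate takes every cell without the marker, whatever its type. Each number from 1 to 3 in the titles names 1 YFP-positive and 1 YFP-negative array, here called a pair. The labels do not say whether the arrays stand for separate cultures, and the p-values then reflect the spread of these samples alone, which may be technical.

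Values are RMA values on a log2 scale, and differences are YFP-positive minus YFP-negative. A gene passed when limma gave a Benjamini-Hochberg adjusted p under 0.05 over all 16550 genes. The table holds no detection call, so the median of each array, between 2.1 and 2.92, serves below only to mark dim values. Arrays correlated across genes, which are not independent replicates, at 0.949 to 0.958 within the YFP-positive group and at 0.894 to 0.926 within the YFP-negative group. The 5 marker lists were thinly measured: 1 of 10 sieve element genes, 1 of 5 of companion cells and phloem parenchyma, 1 of 11 of xylem, 2 of 12 of mesophyll and 3 of 8 of epidermis and guard cells. No marker passed, and SEOR1 itself was not analysed here, so how well the sort parted phloem from other cells was not checked by it. Sorted values of arrays with the same number differed by 0.020 to 0.085 on average, against 0.157 to 0.551 for arrays of different numbers. How arrays of different numbers were put on a common scale is not known, so levels, SDs and distances across numbers may carry a difference in scale, to which differences within pairs are less exposed. A probe set's level depends on its probes, so levels are compared between arrays and not between genes.

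AT1G22900 stood far lower in YFP-positive cells than in the YFP-negative cells beside them, AT3G13650 had the next largest gap, also lower in YFP-positive cells, and the other 8 genes showed no gap that all 3 pairs shared. AT1G22900 was at 4.23, 2.37 and 2.37 in YFP-positive replicates 1 to 3, against 8.24, 8.87 and 8.38 in YFP-negative replicates 1 to 3. All 3 YFP-positive values lay below all 3 YFP-negative values, and the YFP-positive value of replicate 1 was above the other 2. Its mean and SD over 3 arrays were 2.99 ± 1.07 among YFP-positive and 8.5 ± 0.33 among YFP-negative samples. The resulting log2 difference, -5.51 (SE 0.57), had rank 3 from the lowest among all genes. Within pairs 1, 2 and 3 the difference was -4.01, -6.50 and -6.01. No fold is given, since the YFP-positive value of replicate 3 was under its array's median. In sorted bulk samples, fewer cells that express a gene and less of its RNA per cell cannot be told apart.

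Counted by the threshold, 1 of the 10 genes passed, AT1G22900 in the lower direction, where 1.08% of all genes passed in either direction and 0.224% in the lower one (37 genes, a count that was 0 without YFP-positive replicate 3 or without YFP-negative replicate 3). Since AT1G22900 was chosen for this contrast, nothing is read from that count. It was also 0 of the 10 without YFP-positive replicate 2, YFP-positive replicate 3 or YFP-negative replicate 3, with 2 of the 10 at an unadjusted p under 0.05 each time. Of all genes, 1191, 915 and 1187 had such a p in limma in those fits, in that order. In limma with a block for the replicate number, 0 of the 10 passed. Of all genes 0.544% passed, and 0.0483% in the lower direction. An unadjusted p under 0.05 was found for 2 of the 10 in either fit, and for 1 of the 9 relatives. Of all 16550 genes, 1318 had such a p without the block and 2279 with it. The groups did not overlap for 2 of the 10 genes, AT1G22900 and AT3G13650, both lower in YFP-positive cells, beside 4.34% of all genes. Those same 2 genes were lower in all 3 pairs, beside 13.3% of all genes. Differences lay below 0 for 9 of the 10 genes, against 54.7% of all genes, but most of these were close to 0. AT1G22900 was chosen for this contrast, so nothing is read from its part in these counts. Among the 9 relatives, AT3G13650 alone had groups without overlap and was lower in all 3 pairs, and 8 differences lay below 0. The median difference was -0.13 over the 9 relatives and -0.04 over all genes.

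**Figure D1:**
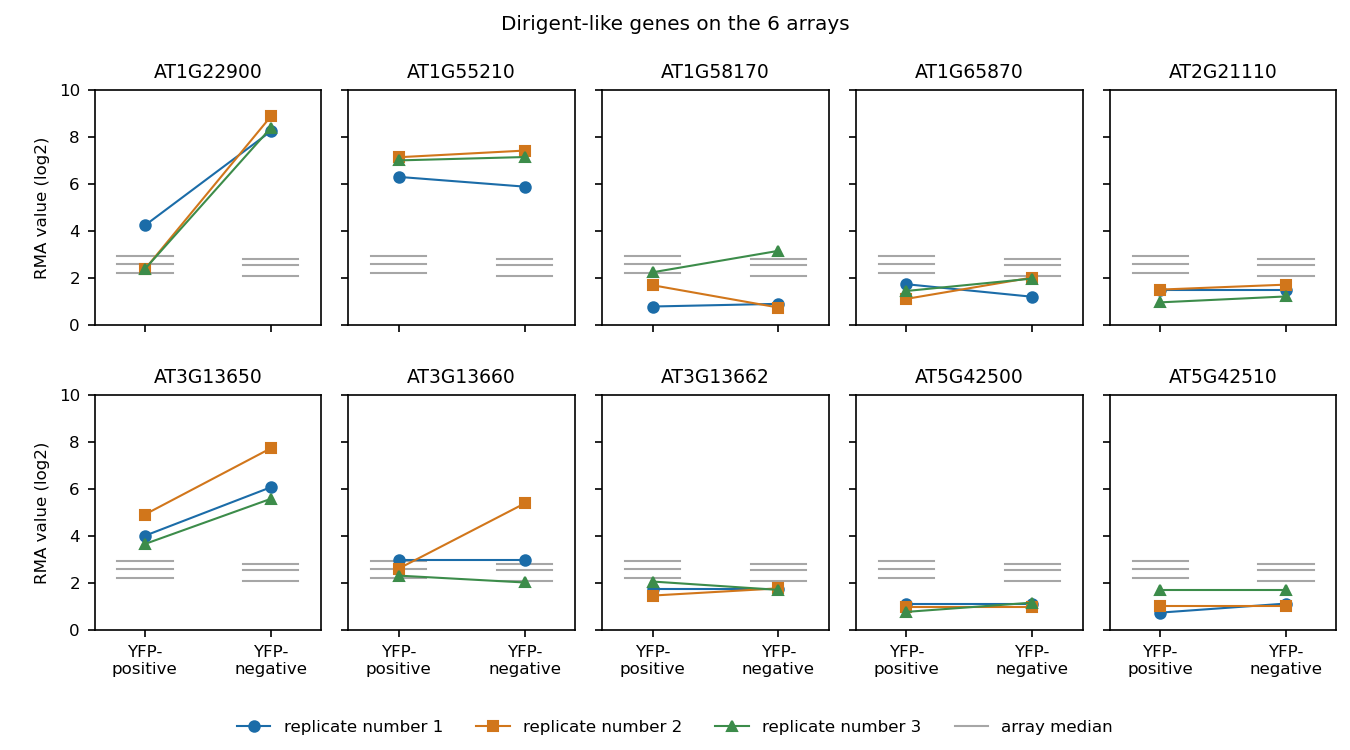
RMA values (log2, vertical axis) of the 10 dirigent-like genes in YFP-positive and YFP-negative cells. Each line joins the 2 arrays of 1 replicate number, and grey bars mark the medians of the 3 arrays of a group. AT1G22900 and AT3G13650 are lower in YFP-positive cells in every pair, and 5 genes lie under the array median on all 6 arrays.

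AT3G13650, AT3G13660 and AT3G13662 follow each other on chromosome 3 with no protein-coding gene between them in the RefSeq annotation of TAIR10.1, and their values did not share a pattern. AT3G13650 was at 4.01, 4.92 and 3.66 in YFP-positive replicates 1 to 3, against 6.08, 7.74 and 5.59 in YFP-negative replicates 1 to 3. The groups did not overlap, and replicate 2 was the highest array of each group. Its mean and SD over 3 arrays were 4.2 ± 0.65 among YFP-positive and 6.47 ± 1.13 among YFP-negative samples. The log2 difference was -2.27, its SE 0.64 and its 95% interval from -3.83 to -0.71. Over all genes it did not pass in limma (adjusted p = 0.287). The pair differences of -2.07, -2.82 and -1.92 were close to each other, and with the replicate block the SE was 0.24, the interval ran from -2.97 to -1.57, and the gene again did not pass (adjusted p = 0.0682 from limma). Every value of AT3G13650 lay above the median of its array.

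AT3G13660, the next gene along, was at 3.0, 2.62 and 2.32 in YFP-positive replicates 1 to 3, against 3.0, 5.39 and 2.02 in YFP-negative replicates 1 to 3. The groups overlapped, and 1 array, YFP-negative replicate 2, stood above the other 5. Its difference was -0.83 (SE 0.85, limma adjusted p = 1), with 0, -2.77 and 0.29 in pairs 1 to 3. Without YFP-negative replicate 2 the difference turned to 0.13. On that array AT3G13650 also had its highest value, 7.74, while AT3G13662 stood at 1.77 there.

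AT3G13662 was at 1.73, 1.47 and 2.06 in YFP-positive replicates 1 to 3, against 1.73, 1.77 and 1.71 in YFP-negative replicates 1 to 3. All 6 values lay under the medians of their arrays. The difference was 0.02 with a 95% interval from -0.60 to 0.64, and its sign turned to -0.03 with quantile normalization and to -0.08 with median centring. So among these 3 neighbours, the gap of AT3G13650 was present in every pair, that of AT3G13660 in 1 pair, and AT3G13662 was dim throughout. Whether probes of related members share signal was not tested.

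AT1G55210 was well above the array median on all 6 arrays and close in the 2 populations. It stood at 6.3, 7.14 and 7.0 in YFP-positive replicates 1 to 3, against 5.88, 7.42 and 7.14 in YFP-negative replicates 1 to 3. The groups overlapped, and replicate 1 was the lowest array of each group. Its mean and SD over 3 arrays were 6.81 ± 0.45 among YFP-positive and 6.82 ± 0.82 among YFP-negative samples. The 95% interval of the difference ran from -1.18 to 1.17, and with the replicate block from -0.59 to 0.58, so a difference of the size seen for AT3G13650 lies outside either interval. The pair differences were 0.41, -0.28 and -0.14.

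AT1G58170 was at 0.78, 1.69 and 2.24 in YFP-positive replicates 1 to 3, against 0.89, 0.73 and 3.15 in YFP-negative replicates 1 to 3. Replicate 3 was the highest array of each group, and its YFP-negative value was the only one of the 6 above an array median. The pair differences of -0.11, 0.95 and -0.91 had no common sign. The average difference was -0.03, with a 95% interval from -1.84 to 1.79, the second widest among the 9 relatives after that of AT3G13660. This spread leaves changes of either sign possible.

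The other 4 relatives, AT1G65870, AT2G21110, AT5G42500 and AT5G42510, lay under the array median on all 6 arrays, as did AT3G13662. That makes 5 of the 10 listed genes, beside 36.6% of all genes. AT1G65870 was at 1.73, 1.1 and 1.44 in YFP-positive replicates 1 to 3, against 1.19, 2.01 and 1.97 in YFP-negative replicates 1 to 3. Its groups overlapped, and its difference was -0.30 with an interval from -1.12 to 0.52. AT2G21110 ranged from 0.96 to 1.5 in YFP-positive cells and from 1.21 to 1.71 in YFP-negative cells, with a difference of -0.15 and an interval from -0.84 to 0.53.

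AT5G42500 and AT5G42510 lie close together on chromosome 5, with 1 annotated protein-coding gene between them. AT5G42500 ranged from 0.77 to 1.13 in YFP-positive cells and from 0.97 to 1.17 in YFP-negative cells, a difference of -0.13 with an interval from -0.70 to 0.44. AT5G42510 ranged from 0.74 to 1.72 in YFP-positive cells and from 1.0 to 1.72 in YFP-negative cells, a difference of -0.13 with an interval from -1.01 to 0.76. For each of the 9 relatives but AT3G13650, limma gave an adjusted p of 1 without the block. With values this dim, a difference in transcript level may not be detectable on these arrays.

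**Figure D2:**
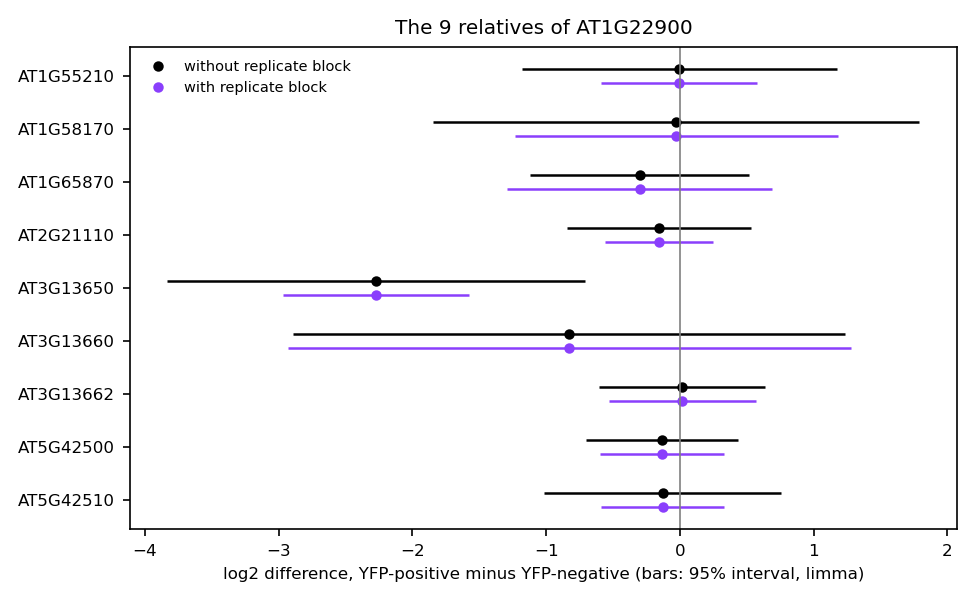
Log2 difference, YFP-positive minus YFP-negative, of the 9 relatives of AT1G22900 (horizontal axis), with 95% intervals from limma without (black) and with (purple) the replicate block. The interval of AT3G13650 lies below 0 in each fit, from -3.83 to -0.71 without the block, before any adjustment over genes, while the other 8 relatives have intervals across 0.

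Several members held exactly the same value on both arrays of a pair. In pair 1 these were AT3G13660, whose value lay above both array medians, and the dim genes AT2G21110, AT3G13662 and AT5G42500. This was also so for the dim genes AT5G42500 and AT5G42510 in pair 2 and for AT5G42510 in pair 3 (tolerance 0). Across all genes 47.8% had equal values in pair 1, 6.76% in pair 2 and 6.54% in pair 3. A difference of 0 between arrays of a pair is therefore common in this table. AT1G22900 and AT3G13650 had no equal pair. Among the 9 relatives, 3 were lower, 4 equal and 2 higher in YFP-positive cells in pair 1. The counts were 6 lower, 2 equal and 1 higher in pair 2, and 6 lower, 1 equal and 2 higher in pair 3.

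**Figure D3:**
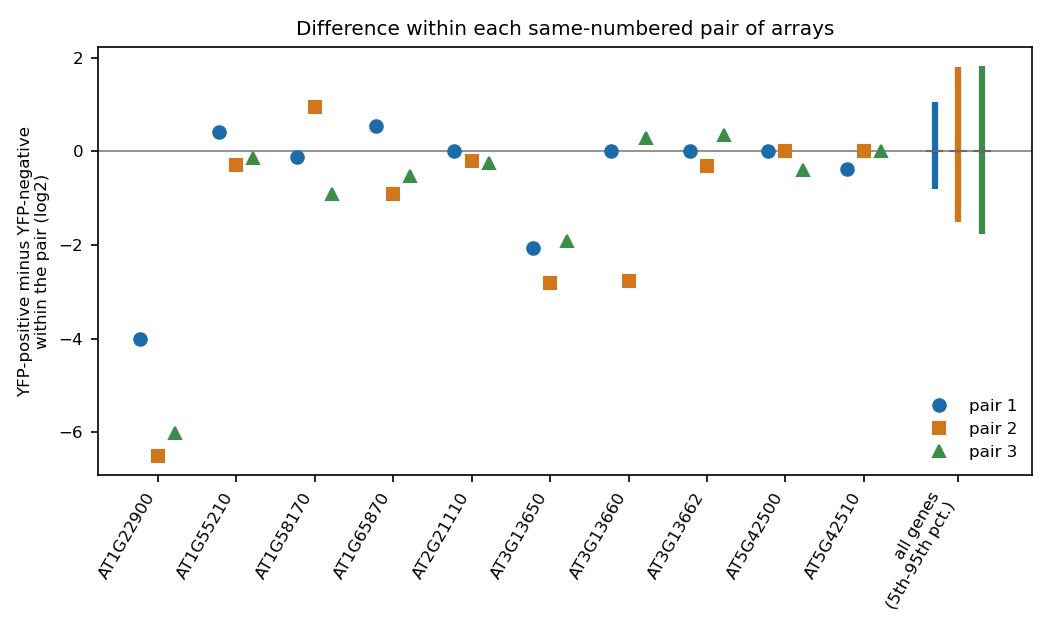
Log2 difference within each of the 3 same-numbered pairs of arrays (vertical axis) for the 10 dirigent-like genes, with bars at the right spanning the 5th to 95th percentile of all 16550 genes in each pair and a black tick at their median. AT1G22900 and AT3G13650 lie below the bar of the matching pair in all 3 pairs, and AT3G13660 does so in pair 2 alone.

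Across all genes the 5th to 95th percentile of the pair differences spanned -0.79 to 1.05 in pair 1, -1.51 to 1.8 in pair 2 and -1.76 to 1.82 in pair 3. All 3 pair differences of AT3G13650 lay below those lower bounds. Pair 1 had the narrowest span over all genes and the smallest gap of AT1G22900.

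The genes whose pattern over the 6 arrays came nearest to that of AT1G22900 were AT4G14746, AT2G43530, AT4G16260, ChiC (a class V chitinase gene) and AT1G26380. Likeness was the mean absolute difference over the 6 arrays between log2 values centred on each gene's own mean, and it came to 0.37, 0.40, 0.42, 0.44 and 0.45 for these 5 genes in that order. AT4G14746 was at 4.73, 2.27 and 1.72 in YFP-positive replicates 1 to 3, against 7.65, 8.38 and 8.44 in YFP-negative replicates 1 to 3. Among the relatives, AT3G13650 came nearest, at a distance of 1.62 and rank 190 of all genes, followed by AT3G13660 at 2.34. AT3G13662 was the farthest relative, at 2.76. These distances are descriptions of 6 arrays in 2 groups, they rest on levels across replicate numbers, and any gene with a large gap in the same direction comes near.

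**Figure D4:**
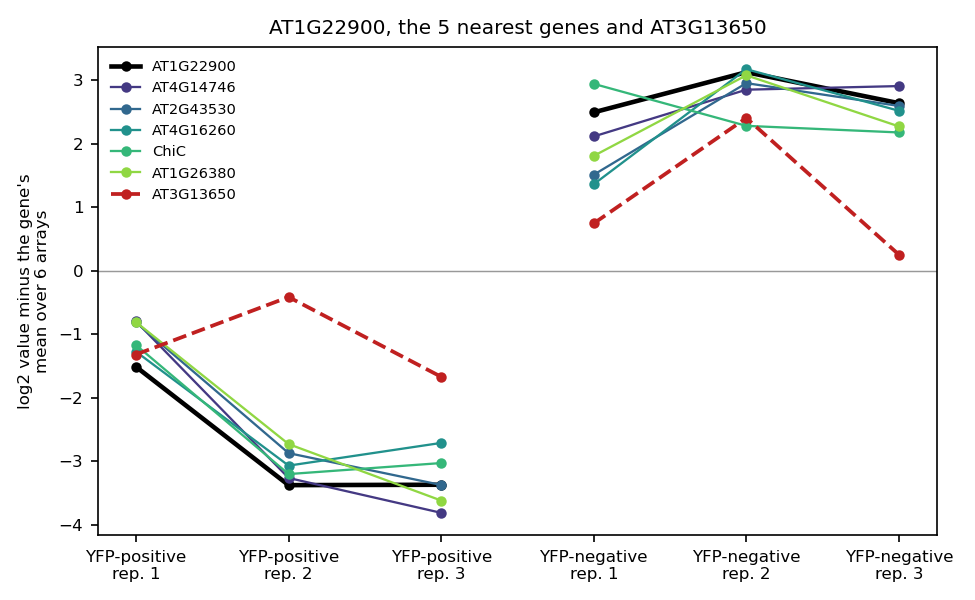
Log2 values centred on each gene's mean over the 6 arrays (vertical axis) for AT1G22900 (black), the 5 genes nearest to it and AT3G13650 (red, dashed); lines only link the points of a gene within a group. The 5 nearest genes follow AT1G22900 at mean absolute distances of 0.37 to 0.45, and AT3G13650 has a smaller gap, at a distance of 1.62.

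AT1G22900 did not have a listed relative beside it, and the gene before it in the TAIR10.1 annotation also stood lower in YFP-positive cells. This neighbour, AT1G22890, was at 5.25, 3.07 and 2.98 in YFP-positive replicates 1 to 3, against 7.35, 6.79 and 8.15 in YFP-negative replicates 1 to 3. The groups did not overlap, as for 4.34% of all genes in this direction. Its difference was -3.67 (SE 0.71), which did not pass in limma (adjusted p = 0.0966, or 0.136 with the replicate block). The gene before that, AT1G22885, had a difference of -1.87 (SE 0.69, limma adjusted p = 0.512), with pair differences of -2.26, -1.11 and -2.25, and overlapping groups. On the other side AT1G22910 differed by -0.72 (SE 0.72) and was under the array median in all 3 YFP-positive arrays. Of the 40 positions up to 2 genes from the 10 listed genes, some holding the same gene or another listed gene, 26 were measured. In limma without the block 0 of these passed, beside 1.08% of all genes. A neighbour of the dim gene AT5G42510, AT5G42530, had a negative difference, -3.06 (SE 1.43). Its pair differences were -0.25, -3.10 and -5.83, and its groups overlapped. Other measured neighbours lay on either side of 0, such as AT3G13672 at 0.64 and AT1G65850 at -0.46. Of all genes, 54.7% had a difference below 0. Looking at neighbours was chosen after the values were seen.

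Of 15 other loci of the dirigent family, 8 were measured, and 0 of the 8 passed in limma in either direction, with or without the block (0 and 1 had an unadjusted p under 0.05 without and with it). Beside them, 1318 of all 16550 genes had such a p without the block and 2279 with it. Their median difference was 0.04, with 3 of 8 below 0, and 5 lay under the array median on all 6 arrays. AT4G13580 had the smallest p among them. It was at 4.51, 5.33 and 5.63 in YFP-positive replicates 1 to 3, against 5.15, 6.39 and 6.64 in YFP-negative replicates 1 to 3. The groups overlapped, since replicate 1 was low in each, but the value was lower in YFP-positive cells in all 3 pairs. Its difference was -0.9 (SE 0.50, limma adjusted p = 0.963), and with the replicate block the SE was 0.16 and the adjusted p 0.133. AT2G21100, which lies near AT2G21110 on chromosome 2, also lay under the array median on all 6 arrays, with a difference of 0.01. ESB1, DIR5 and DIR6, the family members best known for the Casparian strip and for pinoresinol, were not analysed here.

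The pathway that makes the substrates of dirigent proteins was barely covered. Of 21 genes of monolignol and lignan synthesis 2 were measured, HCT, an acyltransferase of the monolignol pathway, and CCR2, a cinnamoyl-CoA reductase, and 0 of the 2 passed in limma (0 had an unadjusted p under 0.05 without the block and 2 with it). Beside them, 1318 of all 16550 genes had such a p without the block and 2279 with it. CCR2 was at 7.23, 5.71 and 5.16 in YFP-positive replicates 1 to 3, against 8.43, 6.82 and 6.52 in YFP-negative replicates 1 to 3. The groups overlapped, but each YFP-positive value lay below that of its pair, by 1.2, 1.11 and 1.37. The difference of CCR2 was -1.23 (SE 0.72, limma adjusted p = 1), and with the block the SE was 0.14 and the adjusted p 0.0735. HCT differed by -0.77 (SE 0.59, limma adjusted p = 1), again lower in all 3 pairs. For HCT the adjusted p with the block was 0.172.

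Laccase genes, whose products oxidise monolignols, had 2 of 17 members measured, AT5G01050 and LAC16. Both lay under the array median on all 6 arrays, and their median difference was 0.11. In limma without the block 0 of the 2 passed, beside 1.08% of all genes, and 0 had an unadjusted p under 0.05, beside 1318 of all 16550 genes. AT5G01050 had the smaller p, with a difference of 0.36 (SE 0.32, limma adjusted p = 1). Of 10 Casparian strip genes, AT1G61590 and GSO1, a receptor kinase gene, were measured. Both were under the array median on all 6 arrays, and AT1G61590, with the smaller p, differed by -0.16 (SE 0.33, limma adjusted p = 1).

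Of 10 genes of defence and stress, PDF1.2, a plant defensin, and STZ, a stress-induced zinc finger factor, were measured. Neither passed, beside 1.08% of all genes. STZ was bright on every array, at 9.71 to 9.99 in YFP-positive cells and 9.82 to 10.81 in YFP-negative cells, with a difference of -0.52 (SE 0.32, limma adjusted p = 1). PDF1.2 differed by -0.08 (SE 0.98), and its values followed the replicate number more than the group, with pair differences of -0.40, 0.14 and 0.01.

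**Figure D5:**
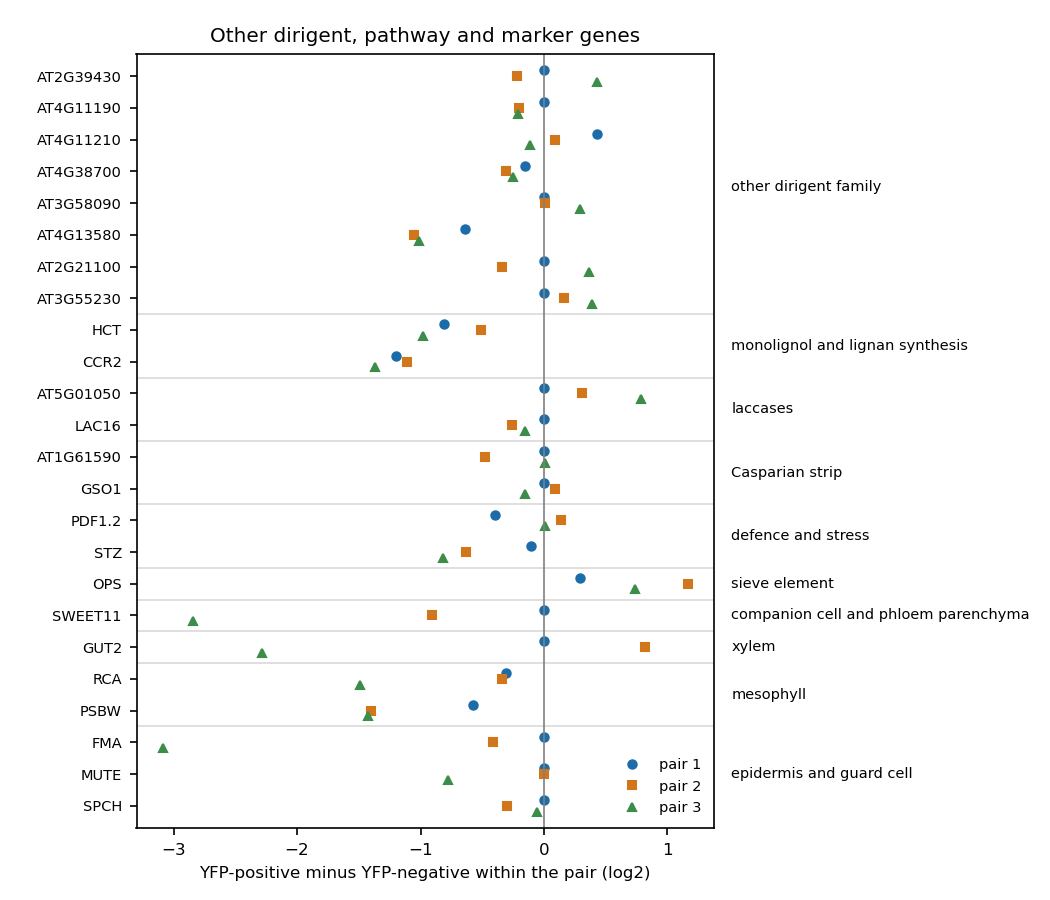
Log2 difference within each same-numbered pair of arrays (horizontal axis) for the measured genes of the pathway and marker lists, 1 gene per row, with lists named at the right. HCT, CCR2, STZ, AT4G13580, AT4G38700 and the mesophyll genes RCA and PSBW are below 0 in all 3 pairs, and most other genes are at or near 0 in pair 1.

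Some markers of other cell types also stood lower in YFP-positive cells. The mean log2 level of the 2 measured mesophyll genes, RCA (Rubisco activase) and PSBW (a photosystem II subunit), ranged from 6.19 to 6.40 in YFP-positive arrays and from 6.7 to 7.65 in YFP-negative arrays, without overlap. Singly RCA differed by -0.71 and PSBW by -1.13, and neither passed in limma (adjusted p = 0.754 and 0.502). The 3 measured genes of epidermis and guard cells had mean levels of 1.0 to 1.59 in YFP-positive and 1.17 to 2.89 in YFP-negative arrays, and 2 of the 3 lay under the array median on all 6 arrays. These genes, FMA, MUTE and SPCH, each had a difference of 0 in pair 1. The level of 2.89 was that of YFP-negative replicate 3, where FMA stood at 5.42, against 1.5 and 1.4 in YFP-negative replicates 1 and 2. The sieve element gene OPS ranged from 3.58 to 6.31 in YFP-positive and from 2.41 to 5.57 in YFP-negative arrays. Its value was higher in YFP-positive cells in all 3 pairs, by 0.29, 1.16 and 0.73, and with the block its difference of 0.73 had a 95% interval from 0.08 to 1.38 and did not pass (limma adjusted p = 0.307). The phloem sugar transporter gene SWEET11 ranged from 1.39 to 5.08 in YFP-positive arrays and from 2.29 to 7.92 in YFP-negative ones. Its difference went the other way from that of OPS, at -1.25 (SE 1.62), with 0, -0.91 and -2.84 in pairs 1 to 3, and it did not pass. GUT2, a xylan synthesis gene of the xylem list, ranged from 1.21 to 2.46 in YFP-positive and from 1.65 to 3.5 in YFP-negative arrays. Its pair differences of 0, 0.81 and -2.29 had no common sign. The part of these markers in the differences of AT1G22900 and AT3G13650 was not tested.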

How the data were processed

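The authors deposited 1 table of log2 values for 38408 probe sets and 6 arrays, which the submitters' processing notes credit to RMA. Its version and settings were not found in those notes, and the log2 scale rests on the range of the values (-0.11 to 13.39). Per the labels' protocols, NuGEN's Ovation kit was used to amplify the RNA. GEO's platform annotation gave 16722 probe sets exactly 1 gene, 759 several, and 20927 were not named here. Gene IDs were updated through RefSeq's table for TAIR10.1 (16411 of 16550 matched). Where a gene had several probe sets, the brightest on average was taken. Differences were fitted with limma 3.58.1 in R 4.3.3 (lmFit, eBayes, group as the only term, two-sided, no filter on dim genes) and tested on simulated data. There the fit recovered 52% of planted log2 changes of size 3 and 89% of those of size 6, with 8 false calls. The simulated arrays varied independently of each other, while same-numbered arrays here did not, so these rates may not hold for these data. A gene that did not pass may therefore still differ. With 3 arrays per group, their number limits the precision. Same-numbered arrays deviated together from their group means (correlations across genes of 0.66, 0.61 and 0.49), so a fit with the number as a block stands beside the main one. Listed genes are all named; from each pathway list, the members past the threshold or else that with the smallest p. Other genes were named after their values were seen. Members and lists were chosen with earlier results of these data known. Of 13 alternatives, the closing section gives the effect. No sequences were used here, and gene positions in TAIR10.1 served only to put the genes in order.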

Additional observations from a re-analysis of the deposited data

How the results depend on the processing

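AT1G22900 stayed lower in YFP-positive cells under all 13 alternatives (-6.13 to -5.20 when single arrays were left out), and so did AT3G13650 (-2.71 to -1.63), which passed under none. The number of listed genes past the threshold was 1 without the block, beside 1.08% of all genes, and 0 with the replicate block, beside 0.544%. It was 0 to 1 when single arrays were left out. It was 0 without YFP-positive replicate 2, YFP-positive replicate 3 or YFP-negative replicate 3, while 2 had an unadjusted p under 0.05 in limma each time. The gene counted was always AT1G22900, which was chosen for this contrast, so nothing is read from this number. Over all genes 179 passed, and the count was 90 with the replicate block, 384 with median centring, 343 among genes above the array median on at least 3 arrays, 307 with an intensity trend, and 37 to 164 when single arrays were left out (lowest without YFP-positive replicate 3, and 38 without YFP-negative replicate 3). Of the calls 79.3% were higher in YFP-positive cells, against 69.0% with median centring, which moved the median difference of all genes to -0.13, with 91.1% under the replicate block, and with 56.8% (without YFP-positive replicate 1) to 100% (without YFP-positive or YFP-negative replicate 3) when single arrays were left out. The lower calls, 37 in all, numbered 8 with the block, 3 without YFP-positive replicate 2, 13 without YFP-negative replicate 2 and 0 without either array of number 3, with 915 and 1187 genes at an unadjusted p under 0.05 in limma. Lower calls rose to 119 with median centring, 65 with an intensity trend and 50 with quantile normalization. Among genes above the array median on at least 3 arrays they numbered 96. Near-zero differences turned sign: with quantile normalization AT1G55210 came to 0.0031, AT1G58170 to 0.018 and AT3G13662 to -0.026, and AT3G13662 to -0.077 with median centring. Leaving out single arrays gave -0.47 to 0.30 for AT1G55210, -0.45 to 0.75 for AT1G58170, -0.28 to 0.022 for AT2G21110, -1.55 to 0.13 for AT3G13660, -0.14 to 0.16 for AT3G13662 and -0.41 to 0.088 for AT5G42510. The cause was not tested. The replicate block changed no other call among the listed genes. Dim genes limit what these arrays can show, as no signal over background was analysed here.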
